A study of Bos taurus with 6 samples.

Results

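The integrated stress response is the programme by which a cell slows translation and switches on the transcription factor ATF4 when amino acids run short, proteins misfold or mitochondria fail. The genes described here are 10 components and targets of that programme, chosen by name from the symbol column of the deposited files: ATF4, ATF5, DDIT3, TRIB3, ASNS, CHAC1, PSAT1, PHGDH, SHMT2 and MTHFD2. All 10 were found among the 17325 genes of each library. The RNA came from cattle oocytes that had been matured in vitro and had reached metaphase II, where meiosis pauses until fertilization. 3 libraries are labelled as the negative control (NC) and 3 as MTFP1 knockdown (siMTFP1), and the study compared the transcriptomes of these groups. MTFP1 sits in the inner membrane of mitochondria and takes part in their fission. The breed and age of the donor animals, the number of oocytes per library, the agent given to the control and the amount of each agent are not given in the sources used here. Nor do these say whether the replicates were separate cultures, so every p-value reflects only how far these libraries spread, which may be technical.

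In the response, kinases that sense stress phosphorylate the initiation factor eIF2, which lowers protein synthesis in general while favouring the translation of a few mRNAs, ATF4 and ATF5 among them. ATF4 then activates genes of amino acid synthesis and uptake and of mitochondrial folate metabolism, together with DDIT3 (the factor also called CHOP), TRIB3 and CHAC1. Because ATF4 and ATF5 are controlled largely at translation, an mRNA level is not a measure of their protein. In a metaphase II oocyte most transcription has ceased, and mRNA levels depend mainly on stores laid down during growth and on their decay.

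Levels are FPKM, the fragments of a gene divided by transcript length and by the mapped fragments of its library, which can be compared between genes because they are scaled per length. Differences are the mean of the siMTFP1-labelled libraries minus the mean of the controls on the log2(FPKM + 1) scale, on which changes of genes at low levels come out too small. They were tested with limma over the 9730 genes whose mean FPKM over the 6 libraries was at least 1, with Benjamini-Hochberg adjustment over all of them. Of the 10 genes, 7 passed this filter. PSAT1 lay just inside it at a mean of 1.38 FPKM, and ATF5 just outside at 0.942, with TRIB3 and PHGDH far below.

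The targeted gene did not follow the labels. MTFP1 lay at 0.53, 0.55 and 0.05 FPKM in controls 1, 2 and 3 and at 0.43, 0.58 and 1.15 in siMTFP1-labelled libraries 1, 2 and 3 (p = 0.4 by an exact permutation test, two-sided, which cannot go below 0.1 here). Its mean of 0.548 FPKM was below the filter, too low to judge the knockdown. The log2 difference of 0.32 fell to 0.14 without control 3 and to 0.15 without siMTFP1-labelled library 3. The groups are therefore called by their labels, and every direction below is that of the labels. The 15 oocyte markers, GDF9, BMP15 and ZP2 among them, were all above 1 FPKM on average, and their summed level was 37839 to 41043 FPKM per library. Of 25 markers of cumulus and granulosa cells, which surround the oocyte, 24 were matched, with summed levels of 155 to 367 FPKM in the controls and 188 to 1168 FPKM in the siMTFP1-labelled libraries, highest in siMTFP1-labelled library 2. TIMP1 made up 955 of the 1168 FPKM in that library and 191 of the 367 FPKM in control 1, and without TIMP1 the sums were 140 to 177 FPKM in the controls and 163 to 212 FPKM in the siMTFP1-labelled libraries. Most of these remaining sums came from STAR, at 54.5 to 72.6 FPKM, and HAS2, so they say little about the other markers. Of the 14 markers of this list that were tested, 9 were higher and 5 lower on average in the siMTFP1-labelled libraries, 0 passed by limma, and 3 had an unadjusted p under 0.05, all higher. These were SPARC at 1.5 ± 1.70 and 5.10 ± 2.99 FPKM (SD, n = 3), VIM at 2.77 ± 3.40 and 8.36 ± 4.80 FPKM, and INHA at 1.54 ± 0.771 and 7.87 ± 7.21 FPKM, each with overlapping groups and highest in siMTFP1-labelled library 2. None of the 6 markers taken as defining was at 0 in every library. The receptor FSHR was at 0 in 5 libraries and at 0.02 FPKM in the other, CYP19A1 lay between 0.10 and 0.24 and AMH between 0 and 0.18, while HAS2 lay between 33.8 and 49.9, PTX3 between 1.44 and 4.10 and TNFAIP6 between 1.06 and 17.1 FPKM. 6 of 8 leukocyte and blood markers were matched, with a summed level of 49.3 to 76.0 FPKM in the controls and 26.8 to 62.4 FPKM in the siMTFP1-labelled libraries. HBA made up most of this, at 45.07, 61.77 and 74.09 FPKM in the controls and 24.08, 25.01 and 57.87 FPKM in the siMTFP1-labelled libraries. Its groups overlapped (limma unadjusted p = 0.0341, adjusted p = 0.750). Of the 6 markers, 4 averaged below 1 FPKM.

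The levels of the stress response genes ranged from percentile 97.7 to percentile 10.9 of all genes listed. DDIT3 was the most abundant of the 10, at a mean of 338 FPKM over the 6 libraries, rank 406 of the 17325 genes. MTHFD2 followed at 162 FPKM, rank 795. ATF4 averaged 16.3 FPKM, SHMT2 9.76, CHAC1 5.29, ASNS 3.48, PSAT1 1.38, ATF5 0.942, TRIB3 0.125 and PHGDH 0.0333 FPKM. From DDIT3 down to CHAC1, each gene lay above the next in the order in all 6 libraries, as did ASNS above PSAT1. CHAC1 and ASNS, PSAT1 and ATF5, ATF5 and TRIB3, and TRIB3 and PHGDH were not separated in this way, because their ranges met or overlapped.

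**Figure D1:**
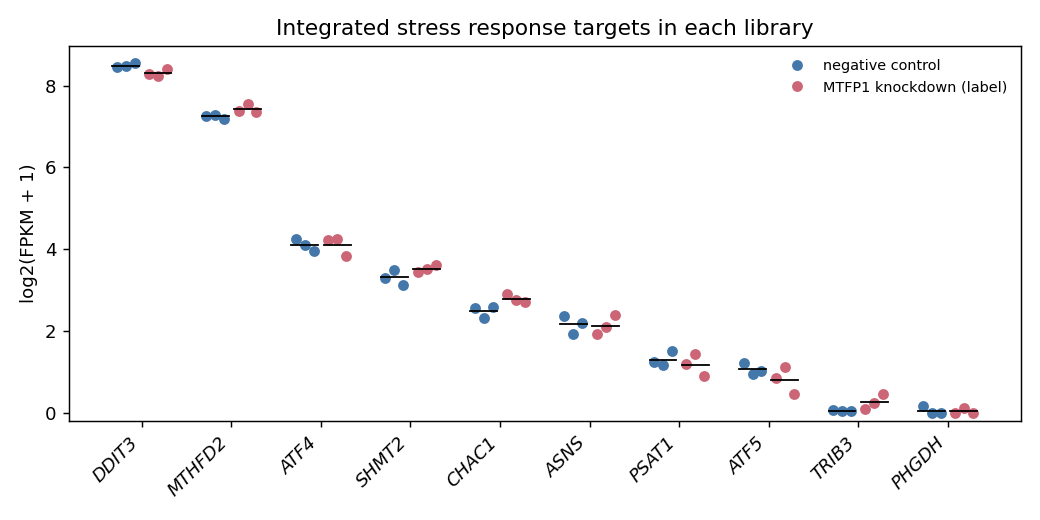
Level of each of the 10 genes as log2(FPKM + 1) in the 3 control libraries (blue) and the 3 siMTFP1-labelled libraries (red), ordered by mean, with points for libraries and black lines for group means. DDIT3 and MTHFD2 lie far above the others, and TRIB3 and PHGDH lie near 0 in both groups.

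None of the 10 genes passed the threshold. By limma, 0 of the 7 tested genes had an adjusted p under 0.05, as for all genes, of which 0% passed. At an unadjusted p under 0.05 there were also 0 of 7, beside 6.53% of all genes tested. Of the 7, 3 were higher and 4 lower on average in the siMTFP1-labelled libraries, with a median difference of -0.01 on the log2 scale, beside 54.2% of all tested genes with a higher mean and a median of 0.02. The groups did not overlap in 3 of the 7: CHAC1 and MTHFD2 were higher in every siMTFP1-labelled library than in every control, and DDIT3 was lower. Over all tested genes the groups did not overlap in 11.0%, 5.97% with every siMTFP1-labelled library above and 5.05% with every one below the controls. The differences of these 3 genes were between -0.18 and 0.30 on the log2 scale, each with a 95% interval that includes 0. In such bulk samples, a change in the share of a cell type and a change in RNA per cell cannot be told apart.

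**Figure D2:**
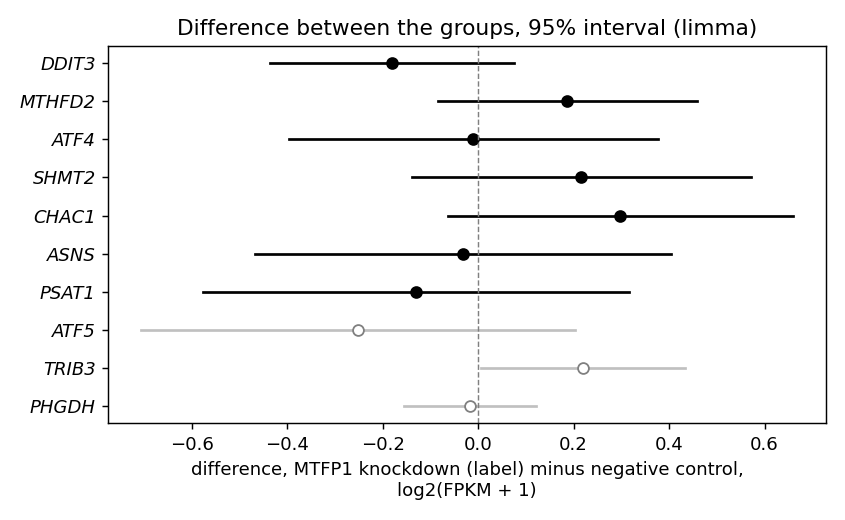
Difference between the groups for each of the 10 genes on the log2(FPKM + 1) scale, with 95% intervals from limma. Filled points are the 7 tested genes and open points are ATF5, TRIB3 and PHGDH from a fit without the filter on low values. The intervals of the 7 tested genes all include 0, with CHAC1 at 0.30 and DDIT3 at -0.18 farthest to either side.

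Among the transcription factors, ATF4, which drives the programme, had nearly equal means in both groups. Its level was 18.08, 16.26 and 14.6 FPKM in controls 1, 2 and 3. In siMTFP1-labelled libraries 1, 2 and 3 it was 17.72, 17.9 and 13.23 FPKM. The groups overlapped, with control 1 the highest and siMTFP1-labelled library 3 the lowest. Group means were 16.3 ± 1.74 and 16.3 ± 2.65 FPKM (SD, n = 3), for a log2 difference of -0.01 with an SE of 0.17 (limma adjusted p = 0.998). The 95% interval ran from -0.40 to 0.38, so differences of up to about that size in either direction could not be told from 0 with these libraries. The direction turned without control 1 (0.0628) or without siMTFP1-labelled library 3 (0.12).

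DDIT3 encodes the factor CHOP, a bZIP partner that acts downstream of ATF4 and is linked to cell death under lasting stress. Its level was 350.77, 354.38 and 371.9 FPKM in the controls. In the siMTFP1-labelled libraries it was 308.49, 302.33 and 340.1 FPKM. Every siMTFP1-labelled library lay below every control, by a narrow margin between siMTFP1-labelled library 3 and control 1. Group means were 359 ± 11.3 and 317 ± 20.3 FPKM (SD, n = 3), which is a ratio of 0.883 and a log2 difference of -0.18 with an SE of 0.11 (limma adjusted p = 0.855). The 95% interval from -0.44 to 0.08 corresponds to ratios of FPKM + 1 from 0.739 to 1.05. Of the tested genes, 39.1% had a difference at least as large in either direction. After median-ratio scaling the groups overlapped for DDIT3, with a log2 difference of -0.22.

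Within each library the DDIT3 level was 16.9 to 25.7 times that of ATF4, at 19.4, 21.8 and 25.5 times in the controls and 17.4, 16.9 and 25.7 times in the siMTFP1-labelled libraries. The span of DDIT3 overlaps MARS1, a methionyl-tRNA synthetase gene, and LOC132345297, which was not analysed here, in the RefSeq table of another assembly. MARS1, listed as MARS in the files, lay at 1.15 to 2.01 FPKM in the 6 libraries, far below DDIT3. The sources used here do not say whether strand was used in counting, so reads of overlapping genes may not be separable.

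ATF5, the other stress-regulated bZIP factor, which supports mitochondrial proteostasis, lay near 1 FPKM. It was 1.33, 0.93 and 1.03 FPKM in the controls and 0.8, 1.18 and 0.38 FPKM in the siMTFP1-labelled libraries. The groups overlapped, with siMTFP1-labelled library 3 the lowest, as it was for ATF4. Group means were 1.10 ± 0.208 and 0.787 ± 0.400 FPKM (SD, n = 3). Without the filter the log2 difference was -0.25, with a 95% interval from -0.71 to 0.20 (limma adjusted p = 0.884). Its span overlaps NUP62, a nuclear pore gene at 2.29 to 4.93 FPKM, and IL4I1, at 0 to 0.07 FPKM, in the RefSeq table, and their part in the ATF5 values was not tested.

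TRIB3 is a pseudokinase that feeds back on ATF4 and on the kinase AKT. It lay near 0, at 0.05, 0.03 and 0.03 FPKM in the controls and 0.07, 0.19 and 0.38 FPKM in the siMTFP1-labelled libraries. The groups did not overlap, and the margin was 0.07 against 0.05 FPKM. Without the filter, 5.66% of all genes had every siMTFP1-labelled library above every control. The log2 difference in that fit was 0.22, with a 95% interval from 0.01 to 0.43 (limma unadjusted p = 0.0455, adjusted p = 0.819). Of all genes, 3.66% had an unadjusted p under 0.05 in this direction in that fit. With the filter at a mean of 0.1 FPKM, which TRIB3 passed only through the siMTFP1-labelled libraries, its log2 difference was also 0.22. Its unadjusted p was then not under 0.05 (limma adjusted p = 0.807). The values of TRIB3 lay in the lowest 21.3% of the ranked genes, and FPKM carry no read totals, so how many fragments stand behind them is unknown.

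CHAC1, which breaks down glutathione and is a sensitive target of ATF4 and its partners, had the smallest p of the 7 tested genes. Its level was 4.96, 4 and 4.99 FPKM in the controls. In the siMTFP1-labelled libraries it was 6.55, 5.73 and 5.53 FPKM. Every siMTFP1-labelled library lay above every control. Group means were 4.65 ± 0.563 and 5.94 ± 0.540 FPKM (SD, n = 3), which is a ratio of 1.28 and a log2 difference of 0.30 with an SE of 0.16 (limma unadjusted p = 0.0944, adjusted p = 0.816). The 95% interval ran from -0.06 to 0.66 on the log2 scale. Of the tested genes, 19.2% had a difference at least as large, and 11.5% had a p at least as small. The groups stayed apart for CHAC1 after rescaling to equal sums, median-ratio scaling and quantile normalization, with log2 differences of 0.31, 0.27 and 0.25. With a pseudocount of 5 the log2 difference was 0.18.

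ASNS, which makes asparagine from aspartate and is a classic target of the response to amino acid shortage, had overlapping groups. It was 4.19, 2.82 and 3.56 FPKM in the controls and 2.8, 3.27 and 4.21 FPKM in the siMTFP1-labelled libraries. The lowest and the highest of the 6 values were both in siMTFP1-labelled libraries. The means were 3.52 ± 0.686 and 3.43 ± 0.718 FPKM (SD, n = 3), with a log2 difference of -0.03 and a 95% interval from -0.47 to 0.40 (limma adjusted p = 0.987). The direction turned without control 1 (0.0725) or without siMTFP1-labelled library 1 (0.0716).

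**Figure D3:**
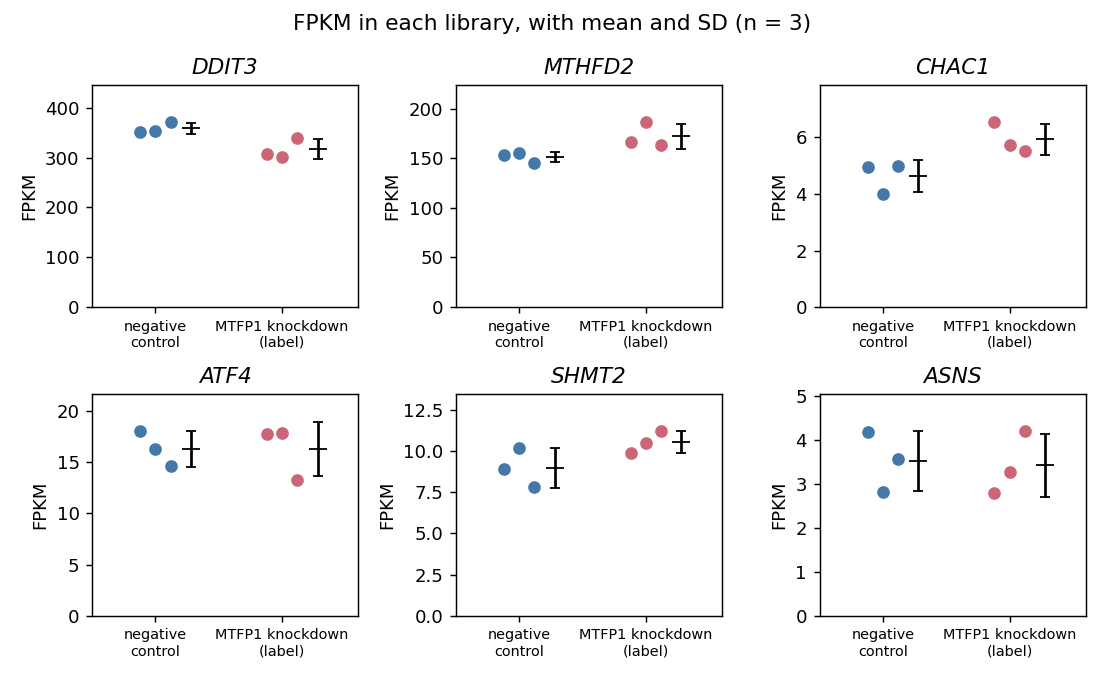
FPKM of DDIT3, MTHFD2, CHAC1, ATF4, SHMT2 and ASNS in each library on axes that start at 0, with points for the 3 controls (blue) and the 3 siMTFP1-labelled libraries (red) and bars for mean and SD. The groups are apart for DDIT3, MTHFD2 and CHAC1, whose ratios of means are 0.883, 1.14 and 1.28, and they overlap for the other 3.

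PHGDH and PSAT1, the enzymes of the first steps of serine synthesis, were low. PHGDH, which commits the glycolytic intermediate 3-phosphoglycerate to serine, was at 0.12, 0 and 0 FPKM in the controls and at 0, 0.08 and 0 FPKM in the siMTFP1-labelled libraries. It was therefore listed at 0 in 4 of 6 libraries, and no fold is given. PSAT1, the aminotransferase of the next step, was 1.36, 1.24 and 1.85 FPKM in the controls and 1.28, 1.71 and 0.86 FPKM in the siMTFP1-labelled libraries. The groups overlapped, and the lowest value was again in siMTFP1-labelled library 3. The means were 1.48 ± 0.323 and 1.28 ± 0.425 FPKM (SD, n = 3), for a log2 difference of -0.13 with a 95% interval from -0.58 to 0.32 (limma adjusted p = 0.947). Without siMTFP1-labelled library 3 the log2 difference was 0.0092.

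PSPH, the phosphatase of the last step of serine synthesis, contrasted in level with these genes. It lay between 329 and 419 FPKM over the 6 libraries. In each library PSPH was therefore far above both PSAT1 and PHGDH, and its log2 difference between the groups was -0.06 (limma unadjusted p = 0.673). PSPH was chosen after its values were seen.

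SHMT2 and MTHFD2, mitochondrial folate enzymes among the described genes, were higher on average in the siMTFP1-labelled libraries, without passing the test. SHMT2, which splits serine into glycine and a folate-bound carbon unit, was 8.91, 10.21 and 7.8 FPKM in the controls. In the siMTFP1-labelled libraries it was 9.88, 10.51 and 11.24 FPKM. Only control 2 reached into the range of the siMTFP1-labelled libraries. The means were 8.97 ± 1.21 and 10.5 ± 0.681 FPKM (SD, n = 3), which is a ratio of 1.17 and a log2 difference of 0.22 with a 95% interval from -0.14 to 0.57 (limma adjusted p = 0.881). Without control 3 the log2 difference was 0.13, and after rescaling to equal sums the groups no longer overlapped. Only control 2 and siMTFP1-labelled library 1 had values that crossed, so leaving out either of them separates the groups by construction. The span of SHMT2 overlaps NDUFA4L2 in the RefSeq table. NDUFA4L2 lay at 0.83, 0.76 and 0.31 FPKM in the controls and at 0.18, 3.92 and 6.66 FPKM in the siMTFP1-labelled libraries, and its part in the SHMT2 values was not tested.

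MTHFD2 oxidizes the folate-bound carbon unit in mitochondria and is known for its high level in embryos and dividing cells. Its level was 153.28, 155.01 and 145.34 FPKM in the controls. In the siMTFP1-labelled libraries it was 166.9, 186.82 and 163.66 FPKM. Every siMTFP1-labelled library lay above every control, with siMTFP1-labelled library 2 the highest. The means were 151 ± 5.16 and 172 ± 12.5 FPKM (SD, n = 3), which is a ratio of 1.14 and a log2 difference of 0.19 with an SE of 0.12 (limma adjusted p = 0.863). The 95% interval from -0.08 to 0.46 corresponds to ratios of FPKM + 1 from 0.943 to 1.37. Without siMTFP1-labelled library 2 the log2 difference was 0.13, and after rescaling to equal sums, where it was 0.19, the groups overlapped. The overlapping gene SLC4A5 was at 0 FPKM in 5 libraries and at 0.03 in the other.

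The MTHFD2 level was 14.6 to 18.6 times that of SHMT2 within a library. This ratio averaged 17.0 ± 1.73 in the controls and 16.4 ± 1.66 in the siMTFP1-labelled libraries (SD, n = 3), a difference smaller than the spread within either group. The cumulus marker level was highest in siMTFP1-labelled library 2, as was MTHFD2. Among the controls the order differed, as control 2 had the lowest cumulus marker level and the highest MTHFD2. Whether marker level and MTHFD2 are linked was not tested. With the mean log2 level of those markers as a covariate, the log2 differences were 0.27 for CHAC1, 0.16 for MTHFD2 and -0.17 for DDIT3.

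**Figure D4:**
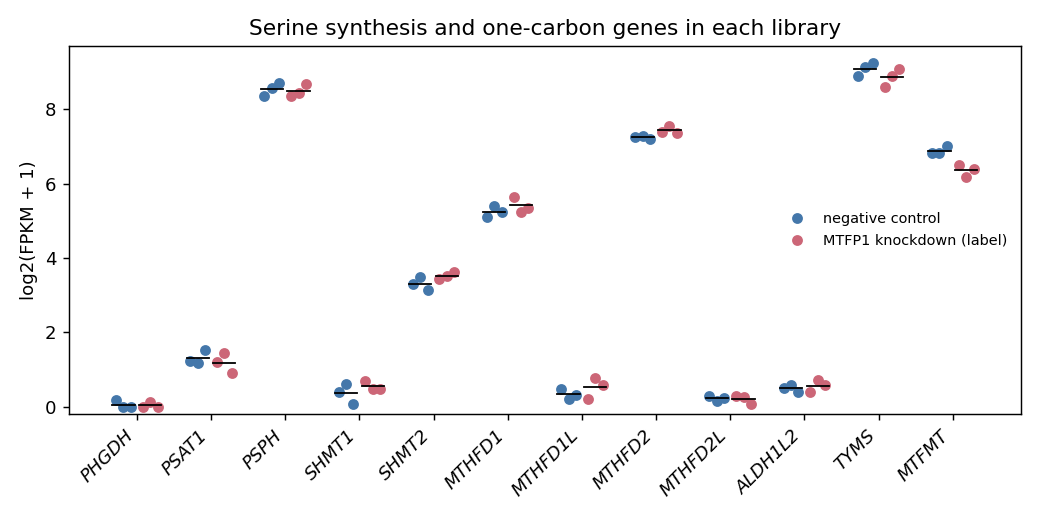
Levels of 12 genes of serine synthesis and folate metabolism as log2(FPKM + 1) in the 3 controls (blue) and the 3 siMTFP1-labelled libraries (red), with black lines for group means. PHGDH and PSAT1 lie low beside PSPH, and MTHFD2 lies far above its paralogue MTHFD2L. The genes shown were chosen after their values were seen.

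None of the other genes of the pathway passed the test. Other serine and folate genes had 17 tested of 32 matched, 4 higher on average and 13 lower in the siMTFP1-labelled libraries, with a median log2 difference of -0.10 beside 0.02 for all genes tested. By limma 0 passed, and 2 had an unadjusted p under 0.05, both lower and without overlap: MTFMT and DLD. Over all genes tested 54.2% were higher on average, 6.53% had an unadjusted p under 0.05 and 5.05% did not overlap in the lower direction. MTFMT, which formylates the mitochondrial initiator tRNA, was 112.66, 112.39 and 127.63 FPKM in the controls and 89.75, 71.54 and 83.24 FPKM in the siMTFP1-labelled libraries. Its groups did not overlap, and its log2 difference was -0.53 with an SE of 0.14 (limma unadjusted p = 0.00439, adjusted p = 0.583). DLD, the dehydrogenase subunit of the glycine cleavage system and other complexes, averaged 19.5 ± 1.97 and 14.7 ± 1.76 FPKM (SD, n = 3), and its groups did not overlap either (limma adjusted p = 0.750). Thymidylate synthase TYMS, a main consumer of folate-bound carbon, averaged 550 ± 68.8 and 472 ± 80.3 FPKM, with overlapping groups (limma adjusted p = 0.878).

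The mitochondrial and cytosolic paralogues of the described enzymes were mostly low, and they too were chosen after their values were seen. MTHFD2L lay between 0.04 and 0.21 FPKM and SHMT1, the cytosolic enzyme, between 0.05 and 0.61 FPKM. MTHFD1L, which releases formate from mitochondria, lay between 0.16 and 0.69 FPKM, and ALDH1L2, an ATF4 target of mitochondrial folate oxidation, between 0.30 and 0.63 FPKM. The cytosolic MTHFD1 was the exception, at 33.3 to 49.4 FPKM (log2 difference 0.17, limma unadjusted p = 0.316).

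Upstream of ATF4, 23 of 26 matched genes of eIF2 control were tested, 12 higher on average and 11 lower in the siMTFP1-labelled libraries, with a median log2 difference of 0.04. By limma 0 passed, and 0 had an unadjusted p under 0.05. PPP1CB, a catalytic subunit of the phosphatase that acts on eIF2, averaged 152 ± 41.2 and 211 ± 42.6 FPKM (SD, n = 3), with overlapping groups (limma adjusted p = 0.766). PPP1R15B, the constitutive subunit that directs that phosphatase to eIF2, averaged 2.98 ± 0.160 and 2.17 ± 0.402 FPKM, and every siMTFP1-labelled library lay below every control (limma adjusted p = 0.789). The adaptor NCK1, at 47.3 ± 2.78 and 38.1 ± 8.04 FPKM, was the other gene of this list whose groups did not overlap (limma adjusted p = 0.824). Over all tested genes the groups did not overlap in the lower direction in 5.05%. MCTS1, a factor of translation reinitiation, averaged 2.06 ± 0.430 and 2.74 ± 0.490 FPKM (limma adjusted p = 0.855).

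The eIF2 kinases were present at unequal levels, given here by name after their values were seen. EIF2AK1 (HRI), which relays mitochondrial stress and haem shortage, was the most abundant at 32.2 to 60.7 FPKM. EIF2AK4 (GCN2), the sensor of uncharged tRNA, lay at 6.07 to 8.36 FPKM, and EIF2AK3 (PERK), the sensor of the endoplasmic reticulum, at 3.80 to 5.35 FPKM. EIF2AK2 (PKR), the sensor of double-stranded RNA, lay at 0.03 to 1.22 FPKM, with its highest value in siMTFP1-labelled library 2, the library with the highest summed cumulus markers with or without TIMP1. OMA1, the mitochondrial protease upstream of EIF2AK1, lay at 24.9 to 37.5 FPKM. The inducible phosphatase subunit PPP1R15A, itself a target of the response, lay at 24.2 to 32.8 FPKM, with a log2 difference of -0.01 (limma unadjusted p = 0.968).

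Other ATF4 targets had 19 tested of 28 matched, 11 higher on average and 8 lower in the siMTFP1-labelled libraries, with a median log2 difference of 0.04. After rescaling to equal sums the split was 13 higher and 6 lower. By limma 0 passed, and 1 had an unadjusted p under 0.05. That gene was TXNIP, a thioredoxin-binding regulator of glucose uptake, at 3.8, 5.34 and 4.53 FPKM in the controls and 2.89, 2.81 and 2.8 FPKM in the siMTFP1-labelled libraries. Its groups did not overlap, and its log2 difference was -0.53 with an SE of 0.16 (limma unadjusted p = 0.0113, adjusted p = 0.673). The proline synthesis enzyme ALDH18A1 went the other way, at 3.63 ± 0.158 and 4.31 ± 0.403 FPKM without overlap (limma adjusted p = 0.884). The autophagy protein gene MAP1LC3B averaged 202 ± 23.9 and 232 ± 12.5 FPKM, and the alanine aminotransferase GPT2 averaged 3.20 ± 0.372 and 4.10 ± 0.920 FPKM, both with overlapping groups. The secreted stress signal GDF15 was at 0 in 4 libraries and at most 0.31 FPKM in the others, and the stress regulator NUPR1 was at 0 in 4 libraries and at most 0.37 FPKM. GDF15 and NUPR1 were picked once their values had been seen.

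Among bZIP partners and regulators of ATF4, 13 of 16 matched genes were tested, 8 higher on average and 5 lower, with a median log2 difference of 0.09. By limma 0 passed, 0 had an unadjusted p under 0.05, and the groups overlapped for all 13. JDP2, a repressor of the same binding sites, averaged 0.817 ± 0.244 and 1.21 ± 0.260 FPKM (SD, n = 3) and so passed the filter only through the siMTFP1-labelled libraries, and CEBPD, a C/EBP factor, averaged 6.16 ± 3.61 and 7.91 ± 1.02 FPKM. The hydroxylase EGLN3 averaged 3.93 ± 1.18 and 6.06 ± 3.08 FPKM, and FOS averaged 1.05 ± 0.343 and 1.53 ± 0.727 FPKM. The usual dimer partner of ATF4, CEBPG, which was chosen after its values were seen, lay at 38.8 to 54.0 FPKM with a log2 difference of -0.08 (limma unadjusted p = 0.673).

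Genes that supply amino acids to translation showed no call. Amino acid transporters had 5 tested of 12 matched, 4 higher on average and 1 lower, with a median log2 difference of 0.14, and 0 had an unadjusted p under 0.05 by limma. After median-ratio scaling or quantile normalization the split was 3 higher and 2 lower. The transporter partner SLC3A2 averaged 99.9 ± 15.5 and 118 ± 5.71 FPKM (SD, n = 3). The cationic amino acid transporter SLC7A3 averaged 711 ± 228 and 522 ± 157 FPKM, with overlapping groups (limma adjusted p = 0.845). SLC1A4 and SLC36A4 had log2 differences of 0.21 and 0.14. The transporter SLC7A11, a known ATF4 target chosen after its values were seen, lay at 0.36 to 0.48 FPKM.

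The cytosolic aminoacyl-tRNA synthetases had 15 tested of 20 matched, 11 higher on average and 4 lower, with a median log2 difference of 0.11. Of all tested genes, 54.2% were higher on average. The split was 10 higher and 5 lower after median-ratio scaling or quantile normalization. By limma, without such scaling, 0 passed, and 1 had an unadjusted p under 0.05, the threonyl enzyme TARS. TARS was 12.96, 12.33 and 11.36 FPKM in the controls and 9.86, 9.05 and 8.74 FPKM in the siMTFP1-labelled libraries, with no overlap (log2 difference -0.37, SE 0.14, limma unadjusted p = 0.0298, adjusted p = 0.750). The tryptophanyl enzyme WARS did not overlap either, in the higher direction, at 12.6 ± 2.13 and 16.4 ± 2.34 FPKM (limma adjusted p = 0.789). WARS is also inducible by interferon. HARS and CARS had log2 differences of 0.38 each, with overlapping groups, and CARS, at 0.800 and 1.29 FPKM on average, passed the filter only through the siMTFP1-labelled libraries.

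Chaperones and proteases of mitochondrial proteostasis had 13 tested of 16 matched, 9 higher on average and 4 lower, with a median log2 difference of 0.14. Over all tested genes 54.2% were higher on average, with a median of 0.02. After quantile normalization the split of the list was 8 higher and 5 lower. By limma 0 passed, and 0 had an unadjusted p under 0.05. The presequence protease PITRM1 averaged 2.72 ± 0.176 and 3.83 ± 1.04 FPKM (SD, n = 3) and the chaperone cofactor GRPEL1 averaged 754 ± 35.3 and 832 ± 59.7 FPKM, both without overlap (limma adjusted p = 0.815 and 0.889). Over all tested genes the groups did not overlap in the higher direction in 5.97%. The translocase subunit TIMM17A averaged 4.78 ± 1.00 and 6.17 ± 0.500 FPKM, and the co-chaperonin HSPE1 averaged 467 ± 9.21 and 538 ± 80.1 FPKM, with overlapping groups.

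**Figure D5:**
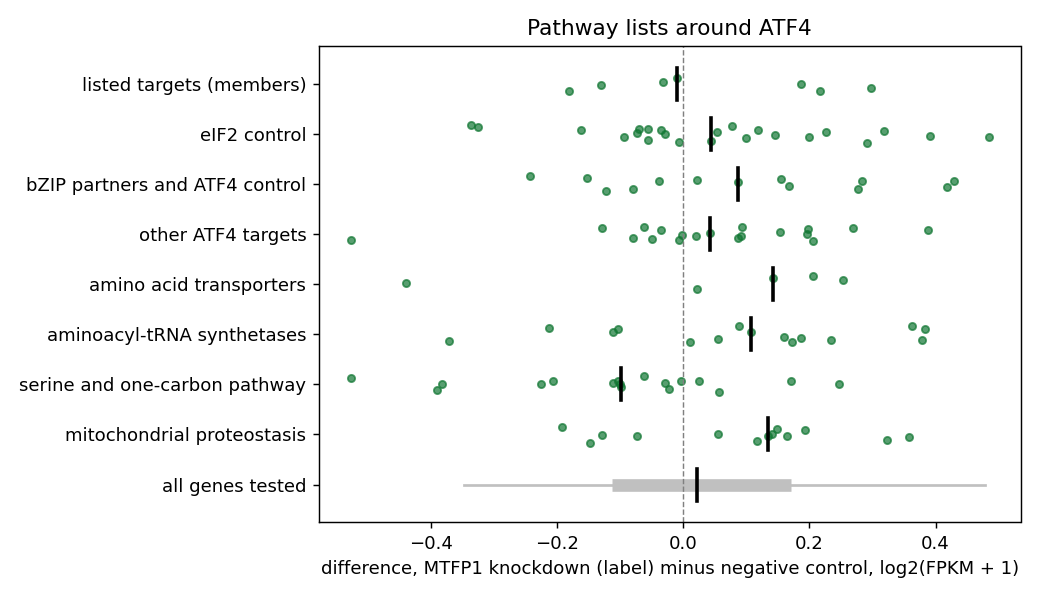
Difference between the groups on the log2(FPKM + 1) scale for each tested gene of the stress response list and 7 related lists (green points, scattered vertically for legibility), with black lines for medians. The lowest row gives all 9730 tested genes as the middle 50% (thick bar) and middle 90% (thin line). The medians of the lists lie between -0.10 and 0.14, beside 0.02 for all genes.

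The genes whose level over the 6 libraries was most like that of ATF4 were CLASP2, TRIM13, ZNF207, SNRNP35 and ACVR1B. Their Pearson correlations with ATF4 on the log2 scale were 0.99, 0.99, 0.98, 0.98 and 0.98, given as a description over 6 libraries. A correlation of at least 0.9 was reached by 122 of the other 9729 tested genes. None of the 6 other tested stress response genes was among them, their correlations with ATF4 lying between -0.50 for DDIT3 and 0.40 for PSAT1.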

How the data were processed

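Messenger RNA libraries had been made from TRIzol-extracted total RNA of oocytes with a kit from BGI (per the labels' protocols). For each library the authors deposited a table of FPKM values with 2 decimals. Tools named in the submitters' processing notes, with no roles or order, are RSEM 1.3.1, HISAT2 2.2.1, DESeq2 1.4.5 and Bowtie2 2.3.4.3, and the build is ARS-UCD1.2. FPKM carry no read totals, so depth is unknown and no counting interval is given; FPKM summed to 784366 to 892790 per library.

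Libraries were grouped by title. Genes whose FPKM averaged at least 1 were kept, and log2(FPKM + 1) was fitted in limma 3.58.1 under R 4.3.3 (eBayes with trend, two-sided, no term beside group, threshold 0.05 after Benjamini-Hochberg adjustment). The test was also tried on simulated data with the means and SDs of these libraries. Genes were matched by symbol, and the gene IDs of all 10 matched the RefSeq table of ARS-UCD2.0, from which only names and neighbours were taken. The 10 genes and the lists were chosen with earlier results of these data known. Named genes were the 10, MTFP1 and the cumulus markers listed as defining. Up to 4 tested genes per list with the smallest p were also named, as were the 5 most like ATF4. Others are marked in the text. Exceptions are TIMP1, STAR and the genes overlapping the 10, named for their part in a value, and GDF9, BMP15 and ZP2, named as examples. Alternatives were other pseudocounts, filters, scalings, array weights, the replicate number as a block, eBayes that was robust or without trend, a cumulus covariate and leaving out each library. Promoter and protein sequences were not used here. Python 3.11.15, pandas 2.3.3 and matplotlib 3.10.9 were used for tables and plots.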

Additional observations from a re-analysis of the deposited data

How the results depend on the processing

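In every alternative in which they were tested, 0 of the 10 genes passed the threshold by limma. DDIT3, MTHFD2, ATF4, SHMT2 and CHAC1 were tested in all 19 alternatives, ASNS and PSAT1 in all but the filter at a mean FPKM of 5, ATF5 and TRIB3 only with no filter or one at 0.1, and PHGDH only with no filter. Of their 133 recomputed differences, 126 kept their direction and 7 changed sign, all of ATF4, ASNS or PSAT1. The filters, the replicate block and the eBayes variants do not alter a difference, so in those settings its direction was fixed in advance. With array weights ATF4 had a log2 difference of 0.0386 and PSAT1 of 0.0077. Leaving out 1 library at a time gave -0.0824 to 0.12 for ATF4, -0.16 to 0.0725 for ASNS and -0.26 to 0.0092 for PSAT1, and the cause was not tested. The number of these genes whose groups did not overlap was 2 to 4 over the settings. The share of all tested genes, 11.0%, is for the settings used above only. Counts in other settings, above all with a library left out, therefore cannot be set against it. The number of these genes was 4 where a lower filter let in TRIB3, or where leaving out a library freed SHMT2 from overlap. With the filter at 0.1, TRIB3 was let in only through the siMTFP1-labelled libraries, at 0.213 FPKM on average beside 0.0367 in the controls. Overlap was judged on FPKM, so pseudocounts, weights, the block, the eBayes variants and the covariate could not change it. Leaving out a library can only part groups, not join them. DDIT3, CHAC1, MTHFD2 and SHMT2 kept their direction throughout. The median differences of the stress response genes and of the 7 related pathway lists kept their sign under the 3 scalings. Over all genes, 2 passed with a mean FPKM of at least 5, 2 with rescaling to equal sums, 1 with the cumulus covariate, and 0 to 2 with 1 library left out. The difference of MTFP1 was 0.09 to 0.96 over pseudocounts of 5 and 0.1. Same-numbered libraries were not paired by the labels, their deviations correlating at 0.03, -0.16 and 0.07, and with the replicate block 0 genes passed (CHAC1 adjusted p = 0.779). The number of libraries and the unknown depth limit what can be seen.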
